A study of Mus musculus with 12 samples.

Results

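The granular fraction of mouse back-skin epidermis, the sorted sample type abbreviated GL, was compared with the basal layer, abbreviated BL, on expression arrays. Its members are 8 of the 12 arrays in the series, chosen by sample title: 2 GL arrays, 3 arrays of basal label-retaining cells (BL LRC) and 3 of basal cells that had lost the label (BL non-LRC). The basal baseline is the mean of the BL LRC mean and the BL non-LRC mean, so each basal fraction has equal weight. The other 4 arrays, 2 from label-retaining and 2 from non-retaining cells of a fraction abbreviated SL, are used only to place genes between the ends. The readings basal, spinous and granular layer for BL, SL and GL, and label-retaining cell for LRC, come from knowledge of the study, since the labels give the abbreviations alone.

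All 5 groups came from mice with the same 4 transgenes. K14-CreER and Rosa-tdTomato were combined with K5-tTA and pTRE-H2B-GFP. The keratin 5 promoter drives a doxycycline-repressed activator of a histone H2B-GFP, the keratin 14 promoter drives a tamoxifen-activated Cre, and tdTomato reports Cre activity. Every mouse was given doxycycline at 1 g per kg of food for 2 weeks to stop H2B-GFP synthesis, so that the remaining label was diluted by division. A single intraperitoneal tamoxifen dose of 75 mg per kg body weight followed, and the mice were killed 1 week later at the second telogen, the resting phase of the hair cycle. GL was not divided by label, so it has no label-retaining fraction to set against that of BL. Age, sex, strain background, the sorting gates and the number of mice behind each array are not stated in the labels. Because nothing states that the arrays are separate animals, the p-values below measure the spread between these samples only.

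Interfollicular epidermis renews from the basal layer, whose keratinocytes divide and hold to the basement membrane through integrins and hemidesmosomes. Cells that leave it stop dividing, pass through the spinous layer and, in the granular layer, assemble the cornified envelope, process filaggrin, secrete lipids and proteases and seal tight junctions before they die as corneocytes. Late envelope genes lie side by side in the epidermal differentiation complex on chromosome 3 of the mouse, and the envelope is crosslinked by transglutaminases.

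Each array gave an intensity for 18193 genes, and 68.1% to 78.4% of them lay above that array's background floor of 22.4 to 42.6 intensity units, taken from bacterial control probe sets. All arrays had the same trimmed mean of 500 units, so an intensity is relative to the whole array and carries no read depth. The number of arrays, 2 for GL, limits the precision. Log2 intensities of replicates correlated across genes at r = 0.925 to 0.932 within every group, with GL at 0.925. Both GL arrays, together with BL LRC 2 and 3 and BL non-LRC 2 and 3, belong to an array set with a high hybridisation control, while replicate 1 of each basal group belongs to a set with a low one. Both SL LRC arrays are in the high set and both SL non-LRC arrays in the low one. Those same BL replicate 1 arrays lacked signal from Y-linked genes. The log2 difference between the 3' and 5' Gapdh control probe sets, a sign of RNA integrity, was 1.22 on GL 1, the highest of the 12 arrays, and 0.68 on GL 2, against 0.68 to 0.96 in BL and 0.80 to 1.02 in SL. Its part in the results was not tested. Intensities from bulk sorted cells cannot tell fewer cells of a type apart from less RNA per cell.

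Between GL and BL, 3106 of 18193 genes passed the test, which is 17.1% of those tested (limma on log2 intensities, Benjamini-Hochberg adjusted p under 0.05, two-sided). Of these, 1576 were higher in GL, 8.66% of all genes, and 1530 were lower, 8.41% of all genes. The median log2 difference over all genes was -0.02, and 2163 of the called genes differed by more than 2-fold. Both GL values lay above or below all 6 BL values for 2907 of the called genes, against 26.9% of all genes tested with no overlap of either kind. Without GL 1 the number called was 1652, of which 1548 were among the 3106, and without GL 2 it was 1964, of which 1789 were among them. Below, a difference is log2 GL minus log2 BL ± moderated standard error, from 2 GL and 6 BL arrays. A fold is the difference of mean log2 values turned into a ratio. Where one side was never above background the fold is a lower bound written "at least", and where the mean of GL, BL LRC or BL non-LRC was not above background, no size is stated. Where these means were above it but single arrays were not, the size is given with the number of arrays above background, and it depends on values that carry no order.

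**Figure D1:**
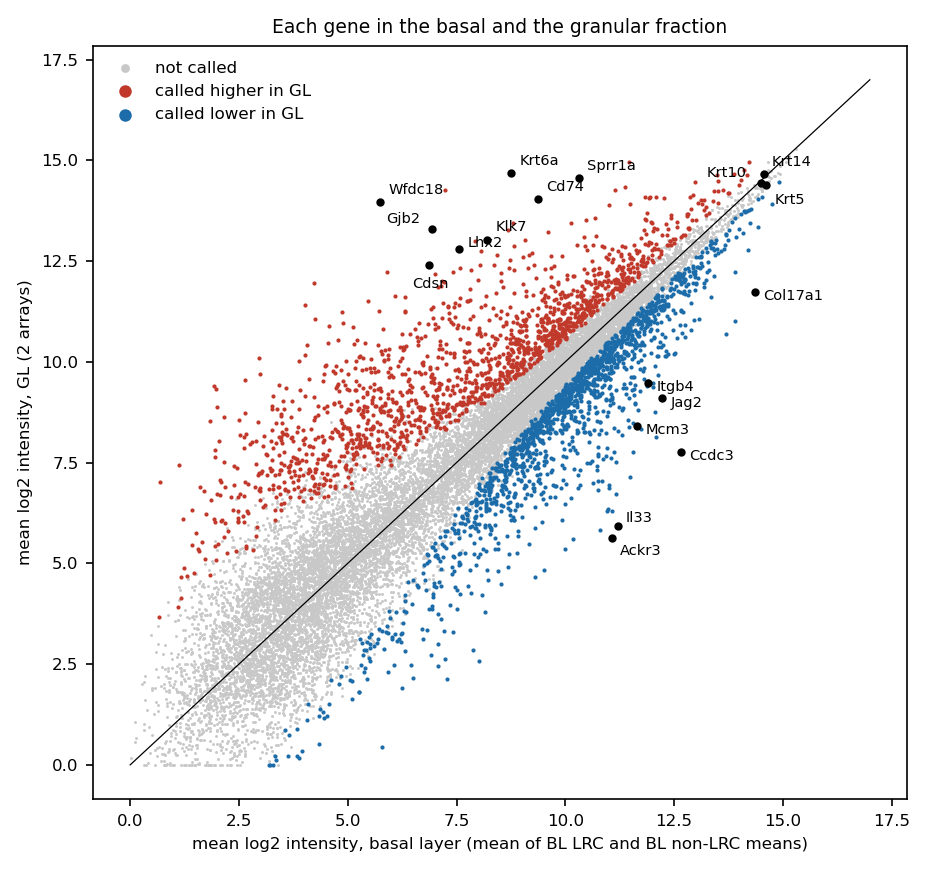
Mean log2 intensity of each of the 18193 genes in BL (horizontal axis, mean of the BL LRC and BL non-LRC means) against GL (vertical axis, mean of 2 arrays). Red points are the 1576 genes higher in GL, blue points the 1530 lower, at a limma adjusted p under 0.05, and grey points did not pass, so called genes lie on both sides of the diagonal in similar numbers.

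In the lists described next, a direction with no call also held no member at an unadjusted p under 0.05 in limma, except that 2 desquamation genes, 1 T cell gene and 1 muscle gene were lower and 1 oxidative phosphorylation gene was higher at that level. Lists share members, and each is described by its count of called members and its median, beside 8.66% higher, 8.41% lower and a median of -0.02 over all genes.

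The label GL was first checked against layer markers. Among granular markers, intensities of Ivl (involucrin, an early envelope protein) were 115, 109 and 224 in BL LRC, then 159, 122 and 244 in BL non-LRC, and 1754 and 829.9 in GL. Its GL values were above all basal values (log2 difference 2.97 ± 0.40, adjusted p = 4.78e-05). Krt14, the basal type I keratin, read 25392, 24191 and 25174 in BL LRC, then 22704, 24743 and 22527 in BL non-LRC, and 24820.3 and 26667 in GL. The groups overlapped and the gene did not pass (log2 difference 0.09 ± 0.10, adjusted p = 0.626). Its partner Krt5 gave -0.23 ± 0.13, adjusted p = 0.271, and the spinous keratins Krt1 and Krt10 gave -0.20 ± 0.16, adjusted p = 0.477 and -0.06 ± 0.11, adjusted p = 0.796. So Ivl was higher in GL, while none of the 4 keratins that define the basal and spinous layers passed. Other markers of these layers are described below. The granular markers Lor, Flg, Hrnr, Cdsn, Klk7 and Casp14 were higher, Casp14 with overlapping values, and Tgm3 was lower. The basal markers Col17a1, Itga6 and Itgb4 were lower and Trp63 did not pass. The spinous markers Dsc1 and Sbsn were higher, and Dsg1a and Krtdap did not pass. The adjusted p of Krtdap was 0.301, and 0.0499 without BL non-LRC 2. Krt10 read 17805 to 28834 in BL and 22995 and 21161 in GL, so spinous keratin mRNA was abundant in the basal fractions too. 

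Many of the genes that attach basal keratinocytes to the basement membrane were lower in GL. Of 25 measured genes of the basement membrane and hemidesmosome, 14 were lower and 2 higher, with a median log2 difference of -1.38. Col17a1, the transmembrane collagen of the hemidesmosome, read 21892, 23514 and 24708 in BL LRC, then 17933, 23021 and 15711 in BL non-LRC, and 3025 and 3859 in GL. Both GL arrays were far below every basal array, by 6.11-fold (log2 difference -2.61 ± 0.15, adjusted p = 5.11e-09). Itga6, the hemidesmosome's alpha subunit and a common sorting marker of basal cells, read 9907, 11235 and 10334 in BL LRC, then 9959, 12232 and 9255 in BL non-LRC, and 3154 and 3044 in GL. The values did not overlap, with a 3.37-fold difference (log2 difference -1.75 ± 0.13, adjusted p = 8.40e-08). Its partner Itgb4 was 5.4-fold lower (log2 difference -2.43 ± 0.21, adjusted p = 5.10e-07). Col7a1, the anchoring fibril collagen, ranged 949.8 to 2474 in BL and 189 and 93.4 in GL (log2 difference -3.80 ± 0.31, adjusted p = 2.24e-07). Itga3, the laminin receptor subunit, ranged 1349.8 to 2619.9 in BL and 324 and 146 in GL (log2 difference -3.35 ± 0.29, adjusted p = 4.54e-07), and Lama3, a chain of laminin 332, was lower by 3.19-fold (log2 difference -1.67 ± 0.15, adjusted p = 5.71e-07). The 2 higher members were Lamb1 (1.72 ± 0.34, adjusted p = 0.00188) and Fras1, which read 5.27 to 43 in BL and 154 and 383 in GL, chosen for naming after their values were seen. Without GL 2 neither was called, and 14 were lower. Leaving out GL 2 put adjusted p above 0.05 for Fras1 (0.153) and Lamb1 (0.0561).

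In the broader list of 23 basal keratinocyte genes, which shares the hemidesmosome genes, 11 were lower, 4 were higher and the median was -0.36. Jag2, a Notch ligand of the basal layer, read 4869, 4526 and 4035 in BL LRC, then 5425, 4871 and 5024 in BL non-LRC, and 432 and 691 in GL. GL lay below all of BL by 8.74-fold (log2 difference -3.13 ± 0.19, adjusted p = 1.44e-08). Dll1, another Notch ligand, was 8.04-fold lower (log2 difference -3.01 ± 0.31, adjusted p = 3.00e-06), and the growth factor receptor Fgfr2 was 4.02-fold lower (log2 difference -2.01 ± 0.15, adjusted p = 9.31e-08). Krt15, a keratin of basal and follicular stem cells, differed by less, from 22292 to 31185 in BL and 14734 and 16289.6 in GL (log2 difference -0.83 ± 0.13, adjusted p = 0.000243). Trp63, the transcription factor that keratinocytes require for stratification, read 20857, 20059.8 and 17616 in BL LRC, then 16994, 19038 and 13119 in BL non-LRC, and 12816 and 14935 in GL and overlapped between groups (log2 difference -0.36 ± 0.14, adjusted p = 0.0909). Adhesion receptors and the ligands Jag2 and Dll1 passed, while Krt5, Krt14 and Trp63 did not. Same-numbered BL LRC and BL non-LRC arrays deviated together from their group means, so the 6 BL arrays are not fully independent. With the replicate number as a block, Trp63 passed (adjusted p = 0.0149). Of the 4 higher members, 2 were called without GL 2, and 2 were called when all probe sets of a gene were averaged. Trp63 (0.0198 without BL non-LRC 3) passed with an array left out.

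**Figure D2:**
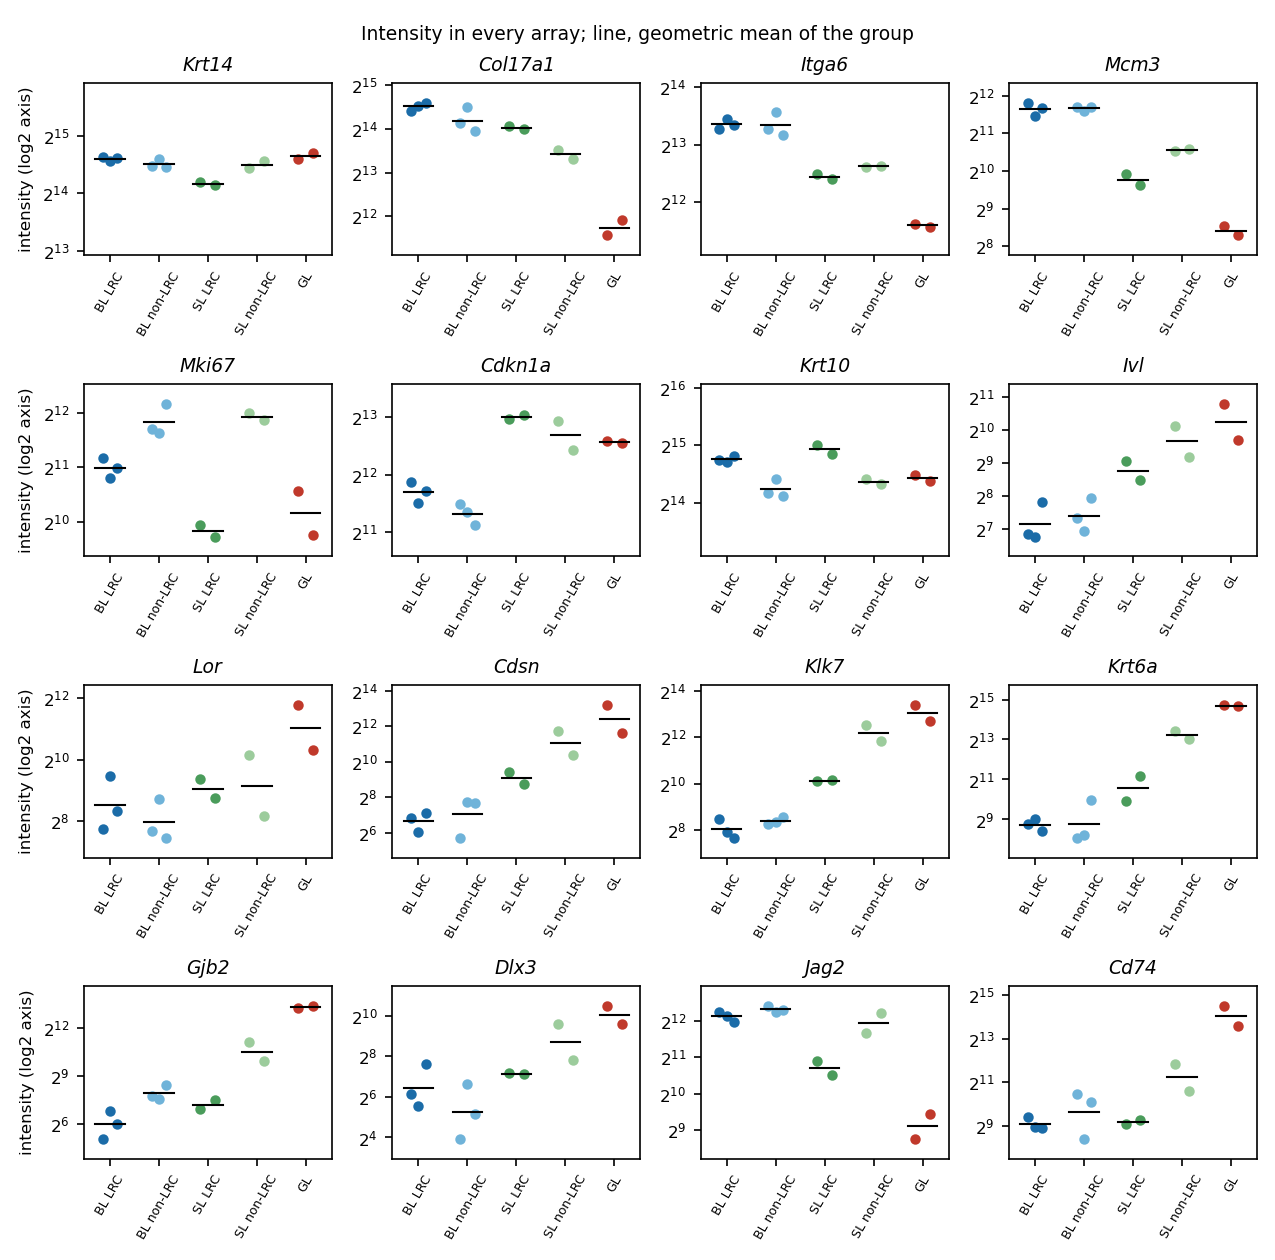
Intensity on a log2 axis of 16 genes in each of the 12 arrays, with GL beside the 4 BL and SL groups. Points are arrays and lines are geometric means, with Col17a1, Itga6 and Mcm3 lowest in GL and Klk7, Krt6a and Gjb2 highest there, while the Krt10 values of GL lie among those of BL, and for Krt14 GL 1 lies among them and GL 2 just above.

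Most DNA replication genes were lower in GL. Of 39 measured members, 32 were lower, none was higher and the median log2 difference was -1.34, with a negative difference in every member. Mcm3, a subunit of the replicative helicase, read 3580.0, 2792 and 3282 in BL LRC, then 3298, 3067 and 3333 in BL non-LRC, and 374 and 313 in GL. GL was about 9.4-fold below BL, with no overlap (log2 difference -3.23 ± 0.17, adjusted p = 2.35e-09). The helicase subunits Mcm5 and Mcm6 were 6.27-fold (log2 difference -2.65 ± 0.19, adjusted p = 6.67e-08) and 4.45-fold lower (log2 difference -2.16 ± 0.20, adjusted p = 8.70e-07), although Mcm6 did not pass when its probe sets were averaged. Cdt1, which licenses replication origins, ranged 2059 to 3379 in BL and 275 and 310.1 in GL (log2 difference -3.12 ± 0.19, adjusted p = 9.33e-09). Gins2, another helicase component, was 8.36-fold lower (log2 difference -3.06 ± 0.26, adjusted p = 4.54e-07), and Dut, which keeps uracil out of DNA, 7.21-fold lower (log2 difference -2.85 ± 0.26, adjusted p = 7.67e-07). Orc1, the origin recognition subunit, was at 71.8 to 173 in BL and not above background on either GL array, at least 4.92-fold lower (adjusted p = 0.000772). Against each basal fraction alone, 31 members were lower than in BL LRC and 31 lower than in BL non-LRC, where 6.89% and 7.13% of all genes were lower. These 2 comparisons share the GL arrays. 

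Some mitotic genes were also lower. Of 34 measured members, 15 were lower, none was higher and the median was -1.12. Mki67, the proliferation antigen, read 2299.8, 1795 and 2026 in BL LRC, then 3314, 3162 and 4578 in BL non-LRC, and 1508 and 868 in GL. All 6 basal values were above GL, by 2.37-fold on average (log2 difference -1.25 ± 0.21, adjusted p = 0.000382). Cdk1, the kinase that starts mitosis, read 470.4, 301 and 349.6 in BL LRC, then 377, 685 and 914 in BL non-LRC, and 52.2 and 142 in GL. GL lay below BL in both arrays (log2 difference -2.47 ± 0.42, adjusted p = 0.000442). Anln, which builds the contractile ring, was 5.81-fold lower (log2 difference -2.54 ± 0.30, adjusted p = 1.49e-05), and Prc1, Kif23 and Ect2, which act at the central spindle, were lower by 4.4, 5.76 and 4.92-fold. Top2a, the topoisomerase of dividing cells, was 3.47-fold lower (log2 difference -1.79 ± 0.29, adjusted p = 0.000315), and Aspm, a spindle-pole protein, 3.17-fold (log2 difference -1.66 ± 0.37, adjusted p = 0.00431). Against BL LRC, 10 mitotic genes were lower with a median of -0.80. Against BL non-LRC, 21 were lower with a median of -1.62. Over all genes, 6.89% were lower than in BL LRC and 7.13% lower than in BL non-LRC. Mki67 gave -0.83 ± 0.23 (adjusted p = 0.0221) against BL LRC and -1.67 ± 0.23 (adjusted p = 9.85e-05) against BL non-LRC. With GL 2 left out, adjusted p passed 0.05 for Aspm (0.0668).

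Promoter letters were read for the replication and mitosis genes, since members of both lists moved together. For E2F, the letters searched were TTTCCCGC or TTTGGCGC, and for NF-Y they were CCAAT, on both strands of 300-base windows from 250 bases before to 50 after the start (RefSeq, GRCm38.p6). Of 11791 tested genes with 1 such window, 2.55% held the E2F letters and 38.6% held CCAAT. Among genes lower in GL the shares were 5.18% and 40.0%, and among genes higher in GL they were 1.32% and 38.6%. In the replication list, 10 of 29 windows held the E2F letters and 17 held CCAAT, whereas in the mitosis list 0 of 26 held the E2F letters and 21 held CCAAT. A match is a description of the letters only. The 150 bases before the start of Mcm6 (chr1:128359706-128359855 on the minus strand), Mcm3 (chr1:20820313-20820462 on the minus strand) and Cdk1 (chr10:69352913-69353062 on the minus strand) are shown 5′ to 3′ as examples of these list members, with matches to the E2F or NF-Y letters in capitals.
Mcm6: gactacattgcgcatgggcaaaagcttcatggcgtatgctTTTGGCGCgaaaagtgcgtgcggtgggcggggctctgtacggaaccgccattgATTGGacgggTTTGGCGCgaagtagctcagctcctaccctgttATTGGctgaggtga
Mcm3: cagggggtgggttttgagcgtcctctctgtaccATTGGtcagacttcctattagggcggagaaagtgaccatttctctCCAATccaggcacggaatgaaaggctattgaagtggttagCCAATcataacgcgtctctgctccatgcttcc
Cdk1: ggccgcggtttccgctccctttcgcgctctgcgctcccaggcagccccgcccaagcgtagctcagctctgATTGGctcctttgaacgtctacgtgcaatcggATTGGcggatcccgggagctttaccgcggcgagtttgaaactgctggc
Mcm6 holds matches to both motifs, with the E2F letters 47 and 110 bases before the start, while Mcm3 and Cdk1 hold only the NF-Y letters in this stretch, 3 and 2 times.

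Inhibitors of the cell cycle were partly higher. Of 22 genes linked to cell-cycle exit, 9 were higher and 3 lower, with a median of 0.67. Cdkn2b, an inhibitor of the G1 kinases, ranged 268 to 519 in BL and 1820.1 and 2147 in GL (log2 difference 2.32 ± 0.29, adjusted p = 2.17e-05). Cdkn1a (p21) read 3739, 2899 and 3359 in BL LRC, then 2866, 2619 and 2215 in BL non-LRC, and 6169 and 6007 in GL. GL was above every basal array (log2 difference 1.07 ± 0.16, adjusted p = 0.000139). Mxd1, a Myc antagonist of differentiating epidermis, was 3.85-fold higher (log2 difference 1.95 ± 0.28, adjusted p = 0.000102), and the antiproliferative gene Btg2 3.28-fold (log2 difference 1.71 ± 0.25, adjusted p = 0.000124). Cdkn1b (p27) differed by 0.66 ± 0.14, adjusted p = 0.00273, and Mxi1, a relative of Mxd1, by 0.93 ± 0.18, adjusted p = 0.00154. The 3 lower members, named after their values were seen, were Rbl1 (-1.55 ± 0.33, adjusted p = 0.00278), Ccng2 (-0.74 ± 0.24, adjusted p = 0.0406) and Ccng1 (-0.55 ± 0.18, adjusted p = 0.044). Without GL 1, 1 member was lower, and without GL 2, none. Without GL 1, Ccng1 (0.157), Ccng2 (0.229) and Mxi1 (0.0643) had an adjusted p above 0.05. Calls that ended without GL 2 were those of Ccng1 (0.237), Ccng2 (0.142) and Rbl1 (0.0597), in parentheses with adjusted p. Leaving out a single BL array did so for Ccng1 (0.0754 with BL LRC 1 out, 0.0564 with BL LRC 2 out and 0.0743 with BL non-LRC 1 out) and Ccng2 (0.0807 with BL LRC 2 out, 0.0583 with BL LRC 3 out and 0.07 with BL non-LRC 1 out).

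Most cornified envelope precursors were higher in GL. Of 15 measured members, 11 were higher, none was lower and the median was 2.78, or 2.88 over the 12 members that have a measured difference or a bound. Cdsn (corneodesmosin, the adhesion protein of late desmosomes) read 113, 67 and 138 in BL LRC, then 53, 217 and 202 in BL non-LRC, and 9341 and 3119 in GL. Both GL arrays exceeded all basal arrays, by 46.5-fold (log2 difference 5.54 ± 0.52, adjusted p = 1.19e-06). Lor (loricrin, the main envelope protein) read 217, 710.2 and 324 in BL LRC, then 208, 426 and 177 in BL non-LRC, and 3476 and 1255 in GL. GL lay above BL, with GL 1 higher than GL 2 (log2 difference 2.78 ± 0.52, adjusted p = 0.00114). Flg (filaggrin, which bundles keratin and yields natural moisturising factor) was at 1.37 to 12.3 in BL, never above background, and at 517 and 271 in GL. It was at least 13-fold higher (adjusted p = 7.49e-05). Cst6, a cysteine protease inhibitor of the envelope, was 11.3-fold higher (log2 difference 3.49 ± 0.26, adjusted p = 7.83e-08), and Tchh (trichohyalin, an envelope and inner root sheath protein) 9.59-fold (log2 difference 3.26 ± 0.55, adjusted p = 0.000439). Rptn (repetin) was not above background in BL and read 567 and 127 in GL, at least 9.3-fold higher (adjusted p = 0.00424), and Hrnr (hornerin), with GL values of 162 and 46.9, passed with its size unstated (adjusted p = 0.0184). Ppl (periplakin), named after its value was seen, did not pass (log2 difference 0.07 ± 0.18, adjusted p = 0.858). Without GL 1, 7 members were higher, and without GL 2, 9. Omitting GL 1 raised adjusted p past 0.05 for Hrnr (0.277), Lor (0.0754) and Rptn (0.139).

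In the neighbouring families of the epidermal differentiation complex, small proline-rich and late cornified envelope genes behaved unequally. Sprr1a, a crosslinked envelope protein that also responds to injury, read 1138, 1191 and 1018 in BL LRC, then 1145, 1118 and 2389 in BL non-LRC, and 28904 and 20219 in GL. GL was 19-fold above BL without overlap (log2 difference 4.25 ± 0.24, adjusted p = 5.63e-09). Sprr1b read 3.42 to 54.9 in BL and 92 and 144 in GL and passed with its size unstated (adjusted p = 0.0266). None of the other 6 SPRR genes passed, and most lay near background, as Sprr3 with 4.68 to 58 in BL and 48.2 and 50.4 in GL (adjusted p = 0.539). Of 17 measured late cornified envelope genes, 9 were higher and none was lower, with a median of 3.11. The size is stated for few of them, because for 11 the mean of GL, BL LRC or BL non-LRC was not above background. Lce1a2 was at 2.03 to 17.5 in BL, never above background, and at 1368 and 501 in GL, at least 28.7-fold higher (adjusted p = 2.93e-05). Crct1 ranged 7.33 to 107 in BL and 3563 and 987 in GL (adjusted p = 4.46e-05), Lce1b 5.14 to 42.9 in BL and 908 and 192 in GL (adjusted p = 0.000209) and Kprp 4.85 to 52 in BL and 1071 and 289 in GL (adjusted p = 0.00058). Lce1a1 was 8.61-fold higher (log2 difference 3.11 ± 0.55, adjusted p = 0.000713, 4 of 6 BL arrays above background) and Lce1m 13-fold (log2 difference 3.70 ± 0.68, adjusted p = 0.000903). The summed intensity of the family was 10841 on GL 1 and 3506 on GL 2, against 711 to 1241 on the BL arrays. Without GL 1, 5 of them were called, and without GL 2, 9. Members of this family are near-identical, so a probe set may read more than 1 of them. If GL 1 is left out, adjusted p exceeds 0.05 for Lce1m (0.0653) and Sprr1b (0.118). Adjusted p exceeded 0.05 in the absence of GL 2 for Sprr1b (0.197).

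Promoter windows of these families were searched for TGANTCA, again on both strands. These letters stand here for AP-1, a factor of keratinocyte differentiation. They allow any middle base, and the counts do not separate the forms. A match describes letters only and was not shown to be a site of AP-1. Among all 11791 tested genes with a window, 6.15% held TGANTCA, as did 7.51% of genes higher in GL and 5.58% of genes lower. It was found in 5 of 10 envelope precursor windows, 7 of 8 SPRR windows and 0 of 14 late cornified envelope windows. The grainyhead letters AACCNGTT were in 1.88% of all windows and 2.32% of those of genes higher in GL, and the KLF letters CCACACCC in 3.95% and 4.53%. The 150 bases before the start of 5 genes higher in GL are shown 5′ to 3′ with TGANTCA matches in capitals, to set families with and without it side by side. They are Flg (chr3:93273396-93273545 on the plus strand), Rptn (chr3:93393549-93393698 on the plus strand), Lor (chr3:92083143-92083292 on the minus strand), Sprr1a (chr3:92485882-92486031 on the minus strand) and Lce1a2 (chr3:92670316-92670465 on the minus strand), from RefSeq, GRCm38.p6.
Flg: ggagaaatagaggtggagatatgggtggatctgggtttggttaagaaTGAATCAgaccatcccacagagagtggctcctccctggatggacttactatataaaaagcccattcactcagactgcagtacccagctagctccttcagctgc
Rptn: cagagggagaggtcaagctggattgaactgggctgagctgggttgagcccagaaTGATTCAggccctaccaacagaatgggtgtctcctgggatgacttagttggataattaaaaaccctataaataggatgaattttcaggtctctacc
Lor: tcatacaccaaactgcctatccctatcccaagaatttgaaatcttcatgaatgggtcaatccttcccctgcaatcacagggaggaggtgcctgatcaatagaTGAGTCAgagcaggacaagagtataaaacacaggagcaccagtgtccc
Sprr1a: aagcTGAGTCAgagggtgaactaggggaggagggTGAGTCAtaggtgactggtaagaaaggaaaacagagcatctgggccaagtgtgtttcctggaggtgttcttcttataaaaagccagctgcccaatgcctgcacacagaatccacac
Lce1a2: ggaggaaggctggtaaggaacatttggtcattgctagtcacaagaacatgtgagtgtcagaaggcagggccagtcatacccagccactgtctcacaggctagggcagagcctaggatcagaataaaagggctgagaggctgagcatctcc
Flg, Rptn and Lor hold 1 match each, 103, 96 and 48 bases before the start, Sprr1a holds 2 matches, and Lce1a2 holds none in this stretch. The middle base is A in Flg, T in Rptn and G in Lor and Sprr1a.

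Transglutaminases moved in both directions. Of 8 measured crosslinking genes, 3 were higher and 2 lower. Tgm1, the membrane-bound enzyme mutated in lamellar ichthyosis, read 17.8, 7.6 and 7.01 in BL LRC, then 5.84, 3 and 51.4 in BL non-LRC, and 817 and 394 in GL. Only 1 of 6 basal values was above background, while both GL values were, so the size is unstated (adjusted p = 0.000146). Tgm3, the transglutaminase of hair and late envelope, read 4445, 2592 and 3575 in BL LRC, then 3404, 3468 and 1566 in BL non-LRC, and 354 and 365 in GL. Its direction was opposite, with GL 8.41-fold below BL and no overlap (log2 difference -3.07 ± 0.27, adjusted p = 5.32e-07). Tgm5 was 7.8-fold higher (log2 difference 2.96 ± 0.68, adjusted p = 0.0055, 5 of 6 BL arrays above background) and Ctsd, the protease that activates Tgm1, 3.43-fold higher (log2 difference 1.78 ± 0.16, adjusted p = 5.94e-07). Tgm2, the tissue transglutaminase, was lower (log2 difference -1.86 ± 0.58, adjusted p = 0.0352), but higher by 0.15 on the log2 scale, and not called, without probe sets marked as possibly cross-hybridising. With the replicate number as a block its adjusted p was 0.0896. With either GL array left out, 1 of the 8 was lower. In a model lacking GL 1, adjusted p was over 0.05 for Tgm2 (0.191) and Tgm5 (0.14). Leaving out GL 2 put adjusted p above 0.05 for Tgm2 (0.157). Leaving out a single BL array did so for Tgm2 (0.0643 with BL LRC 1 out).

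The proteases and inhibitors that control shedding were higher in part. Of 25 measured genes, 14 were higher and none was lower, with a median of 0.92. Klk7, the chymotrypsin-like kallikrein that cuts corneodesmosin, read 357, 243 and 204 in BL LRC, then 305, 320.4 and 373 in BL non-LRC, and 10668 and 6593 in GL. Every GL value was far above every basal value, by 28.5-fold (log2 difference 4.83 ± 0.25, adjusted p = 2.35e-09). Klk5, the trypsin-like kallikrein that activates it, was 11.6-fold higher (log2 difference 3.53 ± 0.25, adjusted p = 6.04e-08), and Klk10 16.5-fold (log2 difference 4.04 ± 0.46, adjusted p = 8.05e-06). Asprv1, the retroviral-like protease that acts on profilaggrin, ranged 93.2 to 378 in BL and 4181 and 2047 in GL (log2 difference 3.78 ± 0.37, adjusted p = 1.86e-06). The membrane protease St14 (matriptase) differed by 0.97 ± 0.17, adjusted p = 0.000586 and the cathepsin inhibitor Cstb by 0.73 ± 0.12, adjusted p = 0.000263. Spink5, the kallikrein inhibitor lost in Netherton syndrome and named after its value was seen, was 6.87-fold higher (log2 difference 2.78 ± 0.56, adjusted p = 0.00203). Casp14, the caspase of cornification, read 1842, 2541 and 3298 in BL LRC, then 1055, 1727 and 1829 in BL non-LRC, and 3063 and 4325 in GL, and its groups overlapped. It passed (log2 difference 0.92 ± 0.23, adjusted p = 0.0104), but not with values under 32 raised to 32 or without the intensity trend, and with its probe sets averaged the difference turned to -0.34. The other Casp14 probe set was not above background, at mean log2 values of 3.24 in BL and 1.65 in GL. With GL 2 left out, adjusted p passed 0.05 for Casp14 (0.204).

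Genes for removing the nucleus and organelles did not move together, with 6 of 25 higher, 3 lower (1 without GL 1) and a median of 0.03. Endou, an endonuclease of differentiated keratinocytes, was 9.99-fold higher (log2 difference 3.32 ± 0.28, adjusted p = 4.04e-07). The lysosomal protease Ctsb differed by 0.84 ± 0.12, adjusted p = 6.76e-05, the autophagy genes Atg7 and Gabarapl1 by 0.98 ± 0.21, adjusted p = 0.00388 and 0.94 ± 0.25, adjusted p = 0.0155. The probe sets of Atg7 disagreed, since the others, also above background, gave log2 differences of 0.77, 0.02 and -0.50. Bnip3, a receptor for removing mitochondria, was 3.88-fold lower (log2 difference -1.96 ± 0.21, adjusted p = 4.69e-06). Without GL 1, Atg7 (0.0622) and Gabarapl1 (0.0587) had an adjusted p above 0.05. Calls that ended without GL 2 were those of Gabarapl1 (0.183), in parentheses with adjusted p.

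Of 31 measured genes of barrier lipid synthesis and transport, 12 were higher, 2 were lower and the median was 0.83, or 0.61 over the 25 members measured on both sides. Elovl4, which makes ultra-long fatty acids for acylceramides, ranged 1278 to 4552 in BL and 4383 and 5893 in GL (log2 difference 1.12 ± 0.22, adjusted p = 0.00128). The glucosylceramide synthase Ugcg was 3-fold higher (log2 difference 1.58 ± 0.33, adjusted p = 0.00254), and Sgms2, a sphingomyelin synthase, 4.12-fold (log2 difference 2.04 ± 0.38, adjusted p = 0.00106). Sult2b1, which makes cholesterol sulphate, was 5.32-fold higher (log2 difference 2.41 ± 0.43, adjusted p = 0.000725), and the secreted phospholipase Pla2g2f 2.49-fold (log2 difference 1.32 ± 0.22, adjusted p = 0.000393). Abhd5, a cofactor in acylceramide synthesis, was lower (log2 difference -0.69 ± 0.15, adjusted p = 0.00394). Another Abhd5 probe set above background gave a log2 difference of only -0.12. Abca12, the lipid transporter of lamellar granules, read 117, 89 and 58 in BL LRC, then 35.9, 56.7 and 53.6 in BL non-LRC, and 141 and 63.5 in GL. Its groups overlapped and it did not pass (log2 difference 0.58 ± 0.52, adjusted p = 0.542). Without GL 1, 5 members were higher and none lower, without GL 2, 6 were higher, and without the intensity trend, 7. Of 20 cholesterol synthesis genes, 3 were higher and 1, Hmgcs1, was lower (-0.86 ± 0.16, adjusted p = 0.00106), without GL 1 none was called, and without GL 2 only 1, which was lower. Omitting GL 1 raised adjusted p past 0.05 for Abhd5 (0.0638), Hmgcs1 (0.0537) and Ugcg (0.134). If GL 2 is left out, adjusted p exceeds 0.05 for Elovl4 (0.0546).

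Genes of the lipoxygenase pathway gave 8 higher and none lower of 13 measured, with a median of 1.72. They include the epidermal epoxide hydrolase Ephx3 (log2 difference 2.69 ± 0.33, adjusted p = 1.79e-05) and the lipoxygenase Alox12e (log2 difference 1.72 ± 0.25, adjusted p = 0.000103). Alox12b, the enzyme mutated in congenital ichthyosis, read 12.5, 48.3 and 73.8 in BL LRC, then 12.2, 82.8 and 53.4 in BL non-LRC, and 106 and 115 in GL. It did not pass (log2 difference 1.59 ± 0.78, adjusted p = 0.197, 4 of 6 BL arrays above background). The remaining leading members, Alox5ap, Ltc4s, Alox5 and Alox15, are known mainly from leukocytes. Alox5ap ranged 9.9 to 58.9 in BL and 1176 and 464 in GL (log2 difference 4.64 ± 0.75, adjusted p = 0.000304, 3 of 6 BL arrays above background), and Ltc4s, never above background in BL, was at least 10.1-fold higher (adjusted p = 0.000802). Over the same arrays the summed leukocyte markers were higher in GL, as given below, and their part in this result was not tested. 

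Junction genes changed unevenly. Of 13 desmosome genes, 5 were higher and 2 lower. Dsc1, the desmocollin of upper layers, read 229, 269 and 433 in BL LRC, then 374, 447 and 641 in BL non-LRC, and 3478 and 3993 in GL. GL was 9.89-fold above BL without overlap (log2 difference 3.31 ± 0.25, adjusted p = 1.15e-07). Dsc2 (2.58 ± 0.59, adjusted p = 0.00522), Dsg1b (1.14 ± 0.25, adjusted p = 0.00371) and Jup, plakoglobin (0.63 ± 0.12, adjusted p = 0.00149), were also higher, and Dsg1a did not pass (0.47 ± 0.17, adjusted p = 0.0652) unless the replicate number was a block (adjusted p = 0.0339). Dsg2, the desmoglein of lower layers, was 2.61-fold lower (log2 difference -1.39 ± 0.24, adjusted p = 0.000466), and Pkp4 3.22-fold lower (log2 difference -1.69 ± 0.19, adjusted p = 9.93e-06). Without GL 2, and likewise without the intensity trend, 3 desmosome genes were higher. Of 22 tight junction genes, 8 were higher and 2 lower, and with either GL array left out 5 were higher and none was lower. Cldn4, a sealing claudin of the granular layer, read 26.4, 10.4 and 51.1 in BL LRC, then 6.32, 28.7 and 62.4 in BL non-LRC, and 1781 and 1124 in GL. Both GL arrays were high, and a basal group mean was not above background, so no size is stated (adjusted p = 2.30e-05). Cldn23 ranged 1.18 to 29.5 in BL and 621 and 363 in GL (adjusted p = 0.00088). Occludin (Ocln) was 2.73-fold higher (log2 difference 1.45 ± 0.23, adjusted p = 0.000225), cingulin (Cgn) 5.71-fold (log2 difference 2.51 ± 0.41, adjusted p = 0.000345) and Cldn1, the claudin of all living layers, 1.88-fold (log2 difference 0.91 ± 0.14, adjusted p = 0.000126), a call lost for Cldn1 when its probe sets were averaged. That average takes in Cldn1 probe sets not above background, while the other one above it gave a log2 difference of 1.09. The polarity gene Pard6b was lower (log2 difference -1.02 ± 0.25, adjusted p = 0.00935). Adjusted p exceeded 0.05 in the absence of GL 1 for Dsc2 (0.142) and Pard6b (0.0718). In a model lacking GL 2, adjusted p was over 0.05 for Dsg1b (0.112) and Pard6b (0.0865). Dsg1a (0.0378 without BL LRC 3) and Dsg1a (0.041 without GL 1) passed with an array left out.

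Among 11 gap junction genes, 2 were higher and 1 lower. Gjb2 (connexin 26, the connexin of activated and follicular keratinocytes) read 33.4, 113 and 63.5 in BL LRC, then 209, 186 and 347 in BL non-LRC, and 9773 and 10453 in GL. The GL values were 83.2-fold above the basal mean (log2 difference 6.38 ± 0.41, adjusted p = 2.01e-08, 5 of 6 BL arrays above background). Gja1 (connexin 43) differed by less (log2 difference 1.15 ± 0.14, adjusted p = 1.53e-05), Panx1 was lower (log2 difference -1.12 ± 0.24, adjusted p = 0.00333), and Gjb6 (connexin 30) did not pass (log2 difference 1.23 ± 0.61, adjusted p = 0.198, 5 of 6 BL arrays above background). Leaving out GL 1 put adjusted p above 0.05 for Panx1 (0.173).

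Transcription factors of differentiation went both ways, with 16 of 42 higher, 11 lower and a median of 0.29. Grhl1, which binds the promoters of desmosomal cadherins, was 3.14-fold higher (log2 difference 1.65 ± 0.17, adjusted p = 2.78e-06). Prdm1 (Blimp1), a regulator of granular layer terminal differentiation, ranged 37.7 to 58.8 in BL and 650.2 and 484 in GL (log2 difference 3.55 ± 0.51, adjusted p = 9.22e-05), and Ovol1, a repressor that marks cells leaving the basal programme, was 2.85-fold higher (log2 difference 1.51 ± 0.22, adjusted p = 9.00e-05). Casz1 (1.14 ± 0.16, adjusted p = 7.17e-05) and Id2 (1.83 ± 0.26, adjusted p = 8.20e-05) were higher. The next 3 members were named after their values were seen. Dlx3, a homeobox regulator of late differentiation, read 69.8, 46.9 and 199.5 in BL LRC, then 15.3, 99.3 and 36.2 in BL non-LRC, and 1412 and 769 in GL, with GL above all of BL (log2 difference 4.18 ± 0.66, adjusted p = 0.000248, 5 of 6 BL arrays above background). Zfp750, which acts below p63 in terminal differentiation, was 3.54-fold higher (log2 difference 1.82 ± 0.27, adjusted p = 0.000116), and Klf4, required for the barrier, did not pass (log2 difference 0.21 ± 0.16, adjusted p = 0.442). Gata3, needed for barrier lipids and the inner root sheath, was lower (log2 difference -1.05 ± 0.15, adjusted p = 9.38e-05). Without GL 1 the lower count was 5, and without the intensity trend it was 6. 

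In the Notch pathway, 7 of 27 members were higher and 3 lower. The lower members were the ligands Jag2 and Dll1, given above, and Lfng, which tunes Notch by adding sugars, at 729 to 1827 in BL and 339 and 147 in GL (log2 difference -2.31 ± 0.28, adjusted p = 1.77e-05). The receptor Notch3 was 2.6-fold higher (log2 difference 1.38 ± 0.22, adjusted p = 0.000297), and Nrarp, a target that feeds back on the pathway, 2.75-fold (log2 difference 1.46 ± 0.21, adjusted p = 0.0001). The target Heyl read 6.42 to 26.1 in BL and 264 and 237 in GL (adjusted p = 0.000641). Hes1, a target that spinous cells require and that was named after its value was seen, differed by 0.92 ± 0.27, adjusted p = 0.0246. The ligand Jag1, also named afterwards, was higher (0.55 ± 0.16, adjusted p = 0.0256). The receptor Notch1 did not pass (0.62 ± 0.21, adjusted p = 0.053) unless the replicate number was a block (adjusted p = 0.00447). Without GL 1, 3 members were higher, and without the intensity trend, 4. With GL 1 left out, adjusted p passed 0.05 for Hes1 (0.306) and Jag1 (0.202). Without GL 2, Jag1 (0.102) had an adjusted p above 0.05. Notch1 (0.0405 without BL non-LRC 2) and Notch1 (0.0228 without BL non-LRC 3) passed with an array left out.

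Among 21 spinous genes, 11 were higher and none was lower, with a median of 0.92. Calml3, a calmodulin-like protein of differentiating keratinocytes, read 111, 93.9 and 43.5 in BL LRC, then 222, 226 and 478 in BL non-LRC, and 3435 and 4831 in GL. GL exceeded BL 27.4-fold (log2 difference 4.77 ± 0.37, adjusted p = 1.33e-07). Sbsn (suprabasin) was 2.8-fold higher (log2 difference 1.49 ± 0.14, adjusted p = 1.48e-06) and Ly6g6c 4.76-fold (log2 difference 2.25 ± 0.25, adjusted p = 7.44e-06). Krt2, the keratin of upper layers in thick skin, read 15.5 to 92.1 in BL and 9.43 and 83.1 in GL, and it did not pass (adjusted p = 0.947). 

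**Figure D3:**
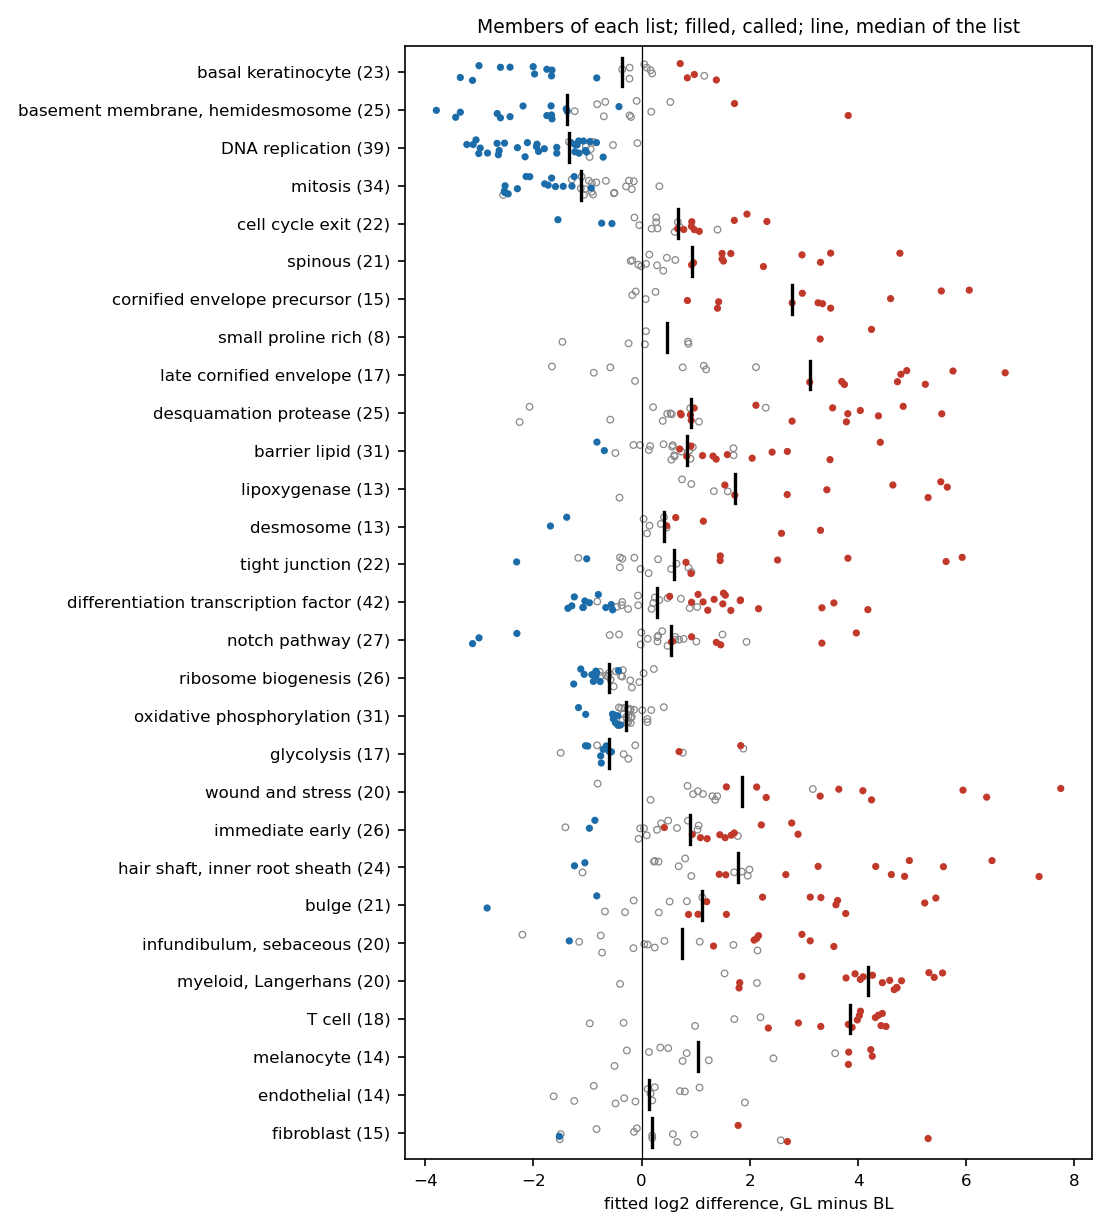
Log2 difference, GL minus BL, of every measured member of 29 gene lists. Filled points passed the limma test at adjusted p under 0.05, open points did not, and the line in each list is its median, from -1.38 for the basement membrane list to 4.18 for the myeloid list, against a median of -0.02 over all genes.

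Lists of growth and energy genes held more lower than higher calls. In ribosome biogenesis 10 of 26 genes were lower, none was higher and the median was -0.61. Nop56 and Nop58, core proteins of the particles that modify ribosomal RNA, differed by -1.26 ± 0.15, adjusted p = 1.67e-05 and -0.83 ± 0.14, adjusted p = 0.000554, the methyltransferase Fbl by -0.85 ± 0.15, adjusted p = 0.000826, and nucleolin (Ncl) by -0.77 ± 0.12, adjusted p = 0.000186. Without GL 1, 6 were lower. Of 21 ribosomal proteins, 3 were lower and the median was -0.27, with Rps6 at -0.86 ± 0.19, adjusted p = 0.00361, a call lost when its probe sets were averaged. The count of 3 was 1 without GL 2, without the intensity trend or with arrays centred on their medians, 5 with quantile scaling or the high-hybridisation-control arrays alone, and 8 with the array set as a term. In oxidative phosphorylation 9 of 31 were lower, none was higher and the median was -0.29, led by Uqcrc1 of complex III (log2 difference -1.03 ± 0.16, adjusted p = 0.000149). That count was 1 without GL 1, 3 without GL 2 and 1 without the intensity trend. Of 17 glycolysis genes, 8 were lower and 2 higher. The hexokinase isoforms went opposite ways, with Hk1 lower, at 915 to 1444 in BL and 523 and 511 in GL (adjusted p = 0.00258), and Hk2 higher, at 350.0 to 806 in BL and 1621 and 2271 in GL (log2 difference 1.83 ± 0.26, adjusted p = 7.60e-05). The glucose transporter Slc2a1 (-0.71 ± 0.15, adjusted p = 0.00269) and lactate dehydrogenase Ldha (-0.56 ± 0.12, adjusted p = 0.00329) were lower, and Pfkp, a phosphofructokinase, was higher (0.69 ± 0.16, adjusted p = 0.0049). Without GL 1, 1 glycolysis gene was lower, and without the intensity trend, 2. Calls that ended without GL 1 were those of Ldha (0.0729) and Slc2a1 (0.138), in parentheses with adjusted p. Omitting GL 2 raised adjusted p past 0.05 for Pfkp (0.0905).

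Some genes of wounded or stressed epidermis were higher in GL, keratins among them. Of 20 genes of wounded or stressed epidermis, 10 were higher, none was lower and the median was 1.85, or 2.21 over the 10 measured on both sides. Krt6a, a keratin of hair follicle companion cells and of activated epidermis, read 435, 525 and 344 in BL LRC, then 273, 296 and 1006 in BL non-LRC, and 26962 and 25945 in GL. GL was 61.4-fold above BL (log2 difference 5.94 ± 0.39, adjusted p = 2.41e-08). Krt16, its partner, was 17-fold higher (log2 difference 4.09 ± 0.31, adjusted p = 9.31e-08), Krt17, of follicle and activated epidermis, 4.36-fold (log2 difference 2.13 ± 0.19, adjusted p = 6.13e-07), and Krt75, of the companion layer, ranged 1.96 to 65.3 in BL and 3618 and 4392 in GL (adjusted p = 8.51e-06). Sprr1a and Gjb2, given above, are also in this list. S100a8, an alarmin named after its value was seen, did not pass (0.95 ± 0.60, adjusted p = 0.346). In the S100 list, 6 of 11 were higher and 1 lower, led by S100a1 (log2 difference 2.94 ± 0.22, adjusted p = 9.32e-08) and S100a4 (log2 difference 2.67 ± 0.33, adjusted p = 2.04e-05), with S100a10 lower (log2 difference -0.80 ± 0.12, adjusted p = 0.000122). 

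Some hair follicle genes were higher in GL as well. Of 24 hair shaft and inner root sheath genes, 11 were higher and 2 lower, with a median of 1.78, or 1.43 over the 15 members measured on both sides or with a bound. Krt25, an inner root sheath keratin, was 29-fold higher (log2 difference 4.86 ± 0.51, adjusted p = 3.80e-06, 4 of 6 BL arrays above background). Krt27 and Krt28, its neighbours and relatives, were not above background in BL and read 236 and 672 and 477 and 282 in GL, at least 13.8 and 12.7-fold higher (adjusted p = 0.000409 and 0.000161). Krt35 of the hair cortex read 1 to 23.4 in BL and 1085 and 379 in GL (adjusted p = 9.87e-05), and Hoxc13, which drives hair keratins, was 30.9-fold higher (log2 difference 4.95 ± 0.38, adjusted p = 1.33e-07). Of 21 genes of the bulge, the resting follicle's stem cell region, 12 were higher and 2 lower, with a median of 1.12. Lhx2, a bulge transcription factor, read 205, 219.7 and 179 in BL LRC, then 145, 168 and 224 in BL non-LRC, and 6783 and 7362 in GL. Both GL arrays were above all others, by 37.6-fold (log2 difference 5.23 ± 0.25, adjusted p = 6.96e-10). Sox9 (log2 difference 3.31 ± 0.19, adjusted p = 5.11e-09), Tbx1 (log2 difference 3.62 ± 0.35, adjusted p = 1.48e-06) and Foxc1 (log2 difference 3.12 ± 0.32, adjusted p = 2.50e-06) were higher, while Lgr6, a receptor of the follicle isthmus, was lower (log2 difference -2.86 ± 0.32, adjusted p = 7.60e-06). Without GL 2, 1 hair shaft and inner root sheath gene was lower. The source of these transcripts in GL, granular keratinocytes or follicle cells in the sort, was not tested. 

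Genes of the infundibulum, the upper follicle, and of sebaceous gland gave 7 higher and 1 lower of 20. Krt79, a keratin of the infundibulum, read 829, 823 and 1008 in BL LRC, then 4922, 4481 and 8887 in BL non-LRC, and 20541 and 18767 in GL. GL was above all of BL, and BL non-LRC was above BL LRC (log2 difference 3.12 ± 0.20, adjusted p = 2.01e-08). Defb6, a beta-defensin of the upper follicle, ranged 598 to 10561 in BL and 23588 and 18198 in GL (log2 difference 2.96 ± 0.31, adjusted p = 4.05e-06), Plet1, of the isthmus and sebaceous duct, differed by 1.33 ± 0.20, adjusted p = 0.000139, and Gata6, of the same region, by 2.16 ± 0.33, adjusted p = 0.000188. The 2 basal fractions gave unlike values for this list. Against BL LRC, 13 members were higher, none was lower and the median was 2.00, and against BL non-LRC, 6 were higher, 7 lower and the median was -0.47. That difference between fractions was not tested here. Over all genes, 7.92% were higher and 6.89% lower than in BL LRC, and 7.28% were higher and 7.13% lower than in BL non-LRC. Without GL 1 no member was lower than in BL. 

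Immediate early genes, which respond within minutes to signals and to cell handling, gave 11 higher and 2 lower of 26, with a median of 0.90. Egr2 ranged 325 to 6033 in BL and 14045 and 10655 in GL (log2 difference 2.89 ± 0.25, adjusted p = 4.17e-07), Ier5 was 6.84-fold higher (log2 difference 2.77 ± 0.23, adjusted p = 3.60e-07), Egr1 3.15-fold (log2 difference 1.66 ± 0.19, adjusted p = 7.57e-06) and Jun 2.12-fold (log2 difference 1.09 ± 0.15, adjusted p = 6.58e-05). Fos, named after its value was seen, differed by 1.45 ± 0.32, adjusted p = 0.00445. Of 13 heat shock genes, 2 were higher, led by Hspb1, the small chaperone of keratinocytes (log2 difference 1.13 ± 0.16, adjusted p = 0.000108), and 2 were lower. Neither heat shock call of a lower gene remained without GL 1 or without GL 2, where 2 and 1 were higher, and of the immediate early genes 1 was lower with either GL array left out. The labels do not say whether the time or stress of sorting differed between fractions, and its part in these values was not tested. If GL 1 is left out, adjusted p exceeds 0.05 for Fos (0.133).

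Most leukocyte markers were higher in GL than in BL. Of 20 myeloid and Langerhans cell genes, 17 were higher, none was lower and the median was 4.18. Cd74, the invariant chain of antigen-presenting cells, read 672, 487 and 479 in BL LRC, then 1426, 339.5 and 1086 in BL non-LRC, and 23091 and 12199.6 in GL. GL exceeded BL 25.4-fold, with GL 1 above GL 2 (log2 difference 4.67 ± 0.42, adjusted p = 6.88e-07). H2-Aa, a class II chain, was 24-fold higher (log2 difference 4.59 ± 0.41, adjusted p = 6.99e-07), Fcer1g 26.4-fold (log2 difference 4.72 ± 0.43, adjusted p = 7.96e-07) and Epcam, expressed by Langerhans cells and by follicle keratinocytes, 3.51-fold (log2 difference 1.81 ± 0.13, adjusted p = 7.50e-08). Cd207 (langerin), which defines Langerhans cells and was named after its value was seen, read 2.17 to 76.2 in BL and 995 and 403 in GL (adjusted p = 0.00165). The summed intensity of the 20 genes was 109289 on GL 1 and 54223 on GL 2, against 5582 to 9484 in BL and 7140 to 23685 in SL. Itgax was the only member never above background in BL, and every member was above background on at least 1 GL array. Without GL 1, 13 were higher, and without GL 2, 18. Adjusted p exceeded 0.05 in the absence of GL 1 for Cd207 (0.0594) and Itgax (0.149).

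Of 18 T cell genes, 13 were higher and none was lower, with a median of 3.86. Cd3g, a chain of the T cell receptor complex, read 292, 216 and 321 in BL LRC, then 471, 312 and 435 in BL non-LRC, and 8775 and 3389 in GL. Its GL values were above all of BL (log2 difference 4.05 ± 0.38, adjusted p = 1.11e-06). Cd3e and Cd3d gave 3.99 ± 0.52, adjusted p = 3.42e-05 and 4.52 ± 0.65, adjusted p = 9.07e-05, and Xcl1, a chemokine of epidermal T cells, 4.32 ± 0.57, adjusted p = 3.92e-05. The sum was 46553 on GL 1 and 14985 on GL 2, against 5499 to 10724 in BL and 3978 to 6637 in SL. Of 14 melanocyte genes, 4 were higher, led by Dct, a pigment enzyme (log2 difference 4.24 ± 0.47, adjusted p = 7.28e-06), with sums of 2416 and 3728 in GL against 794 to 980 in BL. Mlana, which defines melanocytes, was not above background in BL and read 75.1 and 208 in GL. Without GL 2, 1 melanocyte gene was higher, and with probe sets averaged, 7. In a model lacking GL 2, adjusted p was over 0.05 for Mlana (0.107).

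Other cell types gave fewer calls. Of 14 endothelial genes, none passed in limma and 0 had an unadjusted p under 0.05, at sums of 545 to 755 in GL and 443 to 741 in BL, and the vascular cadherin Cdh5 read 18.4 to 39.1 in BL and 66.7 and 1.37 in GL. Of 15 fibroblast genes, 3 were higher and 1 lower, with sums of 3028 to 3608 against 1869 to 3006. Dcn (decorin) read 3.48 to 79.5 in BL and 616 and 435 in GL (adjusted p = 0.00586), while Lum and Mfap5 were never above background in either group. With either GL array left out 1 fibroblast gene was higher, and without GL 2 none was lower. Of 14 muscle genes, 1 was higher, Myl9 at 3.3 to 87.2 in BL and 423 and 639 in GL (adjusted p = 0.0011), and Des was never above background. The muscle sums of 1401 to 1477 in GL lay above the 532 to 672 of BL. Of 9 erythroid, adipose and neural genes, 1 was higher, S100b, at 3.41 to 77.7 in BL and 677 and 620.1 in GL (adjusted p = 0.000229), with sums of 1308 to 1529.7 in GL above 569 to 909 in BL. Leukocyte genes are among the 1576 genes higher in GL, and the part of such cells in the results on other lists was not tested. The granular markers Klk7, Cdsn, Ivl, Lor, Flg and Hrnr were higher on GL 1 than on GL 2. So were the summed myeloid and T cell genes. Casp14, Dsc1 and Calml3 were higher on GL 2 than on GL 1, while Tgm3, Wfdc18, Krt6a, Gjb2 and Lhx2 differed between the GL arrays by little. Leaving out GL 1 put adjusted p above 0.05 for Dcn (0.0869). With GL 2 left out, adjusted p passed 0.05 for Dcn (0.0524). Cdh5 (0.00876 without GL 1) passed with an array left out.

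**Figure D4:**
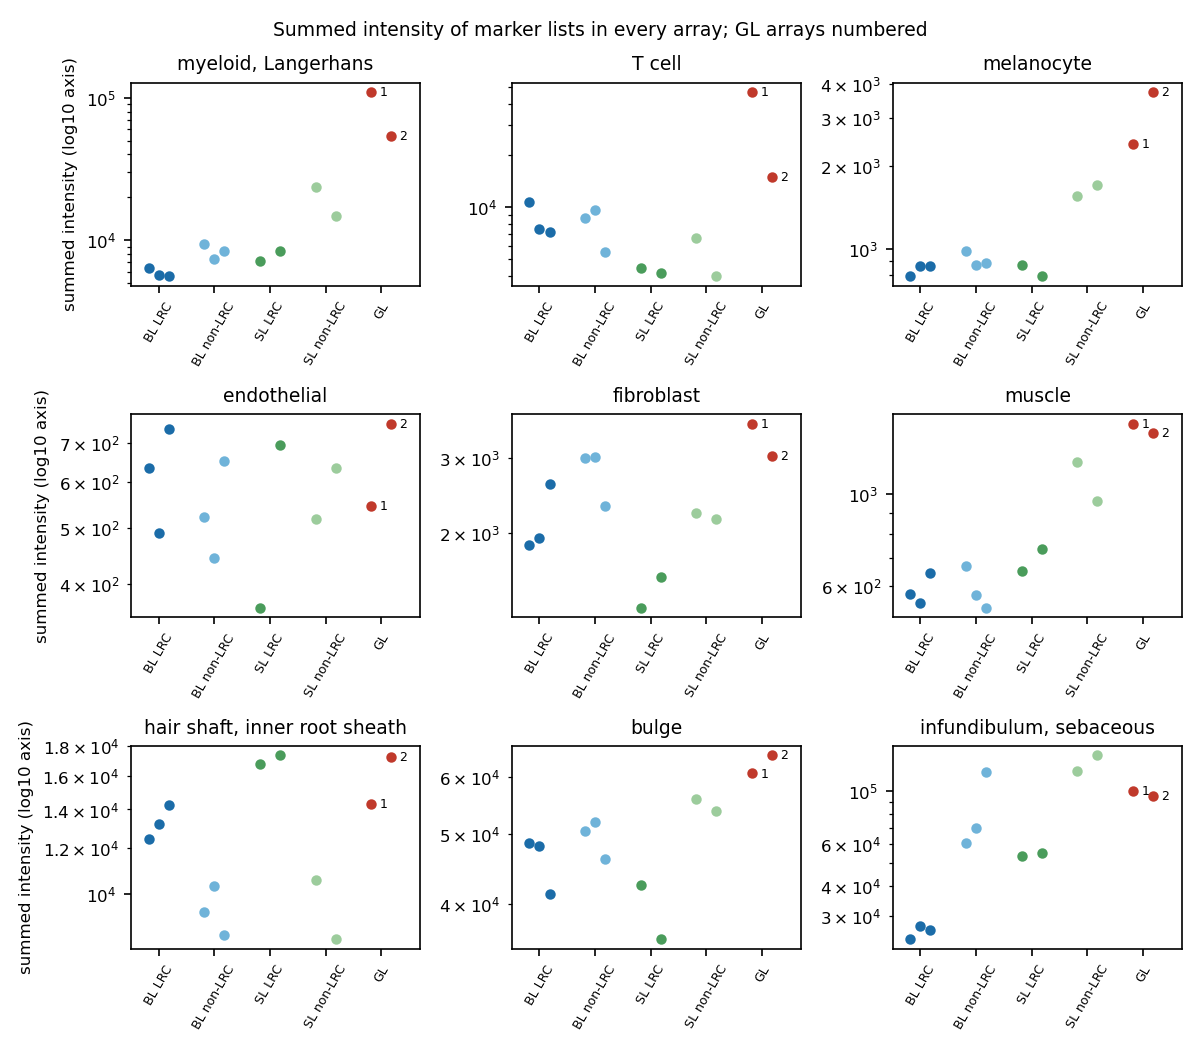
Summed intensity, on a log10 axis, of the measured members of 9 marker lists on each of the 12 arrays, with the GL arrays numbered 1 and 2. The myeloid sums reach 109289 and 54223 and the T cell sums 46553 and 14985 on the GL arrays, above every BL array, while the endothelial sums overlap.

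The rule for the largest differences, which asks for no overlap and for group means above background, named 12 genes higher in GL. Wfdc18, a whey acidic protein family member, read 90.2, 122 and 26.1 in BL LRC, then 16.1, 19.8 and 256 in BL non-LRC, and 15553 and 16457 in GL. GL was 299.6-fold above BL (log2 difference 8.23 ± 0.82, adjusted p = 2.09e-06, 3 of 6 BL arrays above background). Pdzrn3, a PDZ and RING domain ubiquitin ligase, ranged 58 to 669 in BL and 18861 and 20486 in GL (log2 difference 7.03 ± 0.61, adjusted p = 5.18e-07). Shisa2, a trafficking regulator of Wnt and FGF receptors, was 81.6-fold higher (log2 difference 6.35 ± 0.41, adjusted p = 2.01e-08, 5 of 6 BL arrays above background), and Cald1 (caldesmon, which binds actin) 36.1-fold (log2 difference 5.17 ± 0.50, adjusted p = 1.40e-06, 5 of 6 BL arrays above background). The leukocyte genes Csf1r (5.31 ± 0.67, adjusted p = 2.44e-05) and Ctss (5.56 ± 0.76, adjusted p = 5.84e-05), with Tnfaip2 (5.30 ± 0.98, adjusted p = 0.000968, 4 of 6 BL arrays above background), Teddm3 (5.56 ± 0.43, adjusted p = 1.41e-07, 5 of 6 BL arrays above background) and the genes Gjb2, Krt6a, Cdsn and Lhx2 described above complete the 12. Of the 8 largest bounds, Lce1a2 came first, followed by Calhm5 (at least 23.7-fold), Aldh1a2, which makes retinoic acid (at least 23.3-fold, from 1.24 to 9.02 in BL to 534 and 846 in GL), Rassf4 (at least 16.4-fold), Dock10 (at least 15.8-fold), Gpr171 (at least 14.8-fold), Slc37a1 (at least 14-fold) and Krt27. Without GL 1, Tnfaip2 (0.0544) had an adjusted p above 0.05.

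The 12 largest decreases were named by the same rule. Ackr3, a scavenger receptor for the chemokine CXCL12, read 2686, 2229 and 2072 in BL LRC, then 2860.3, 2020.5 and 1390.2 in BL non-LRC, and 51.5 and 47.1 in GL. GL was 43.7-fold below BL, and the basal values lay within a narrow range (log2 difference -5.45 ± 0.25, adjusted p = 6.96e-10). Il33, the alarmin cytokine of basal keratinocyte nuclei, read 2824, 3916 and 2767 in BL LRC, then 2343, 2300.5 and 1012 in BL non-LRC, and 73.3 and 50.8 in GL. No basal value came near the GL values (log2 difference -5.26 ± 0.34, adjusted p = 2.01e-08). Esr1, the oestrogen receptor alpha, was 31.1-fold lower (log2 difference -4.96 ± 0.29, adjusted p = 8.32e-09), the neurotrophin receptor Ntrk2 27.6-fold (log2 difference -4.79 ± 0.48, adjusted p = 2.37e-06) and Wnt10a, a ligand needed for hair and sweat glands, 23.8-fold (log2 difference -4.57 ± 0.48, adjusted p = 3.28e-06, 1 of 2 GL arrays above background). Phldb2, which anchors microtubules at the basal cell cortex, was 25.3-fold lower (log2 difference -4.66 ± 0.39, adjusted p = 3.20e-07, 1 of 2 GL arrays above background), and Cdh13, a cadherin without a cytoplasmic tail, 21.7-fold (log2 difference -4.44 ± 0.32, adjusted p = 7.22e-08). Thbs2, a matrix glycoprotein, differed by -4.66 ± 0.27, adjusted p = 5.86e-09, and Ccdc3, Ctnnal1, Ripply3 and Cysltr1 by -4.89 ± 0.27, -4.62 ± 0.22, -4.64 ± 0.38 and -4.63 ± 0.36, with Ripply3 above background on 1 of 2 GL arrays. The largest bounds were those of Ackr2, the decoy chemokine receptor (at least 11.5-fold lower, from 203 to 445 in BL to 20.2 and 9.67 in GL), the growth factor Gdnf (at least 10.4-fold), Thbs3 (at least 7.69-fold), Eva1c (at least 6.82-fold), the prostaglandin synthase Ptgs2 (at least 6.21-fold), Ptprz1 (at least 6.08-fold), A930033H14Rik (at least 5.41-fold) and Xpnpep2 (at least 5.41-fold). 

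Set against the basal fractions one at a time, GL differed from BL LRC in 2695 genes, 14.8% of those tested, with 1441 higher (7.92%) and 1254 lower (6.89%). From BL non-LRC it differed in 2622 genes, 14.4% of those tested, with 1325 higher (7.28%) and 1297 lower (7.13%). Centring each array on its median moved the second split to 978 higher and 1620 lower. Of the 3106 genes called against the mean, 3095 had the same sign against both fractions, which share the GL arrays. Sizes for single genes could still be unlike. Cst6 gave 4.17 ± 0.29 against BL LRC and 2.82 ± 0.29 against BL non-LRC, Calml3 5.73 ± 0.41 and 3.82 ± 0.41, and Gjb2 7.35 ± 0.46 and 5.41 ± 0.46, while Krt6a gave 5.95 ± 0.44 and 5.93 ± 0.44 and Mcm3 -3.23 ± 0.19 and -3.24 ± 0.19. Of the genes thought to mark the study's stem cell classes, Dlx1 did not pass (-0.61 ± 0.73, adjusted p = 0.672), and Slc1a3 ranged 75.8 to 435 in BL and 37.4 and 12.6 in GL (adjusted p = 0.0006). 

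The SL mean lay between the ends for most called genes. These genes were selected for a gap between BL and GL, which by itself makes a place between them likely. The share over all genes was not counted, so the counts cannot show an ordered path. Of the 1576 genes higher in GL, the SL mean lay between the BL and GL means for 1303, above GL for 47 and below BL for 226. Of the 1530 lower in GL it lay between for 1326, below GL for 20 and above BL for 184. Between GL and SL directly, 1510 genes passed, 8.30% of those tested, with 799 higher in GL (4.39%) and 711 lower (3.91%). Klk7 read 1089.9 and 1134 in SL LRC and 5963 and 3665 in SL non-LRC, above BL and below GL (1.88 ± 0.27 for GL minus SL, adjusted p = 0.000295). Dsc1 read 1486 and 1759.6 in SL LRC and 3173 and 2590.3 in SL non-LRC, and its GL minus SL difference did not pass (0.79 ± 0.27, adjusted p = 0.0828). Of the replication list 15 members were lower in GL than in SL, median -0.67, and Mcm3 read 964 and 786 in SL LRC and 1466 and 1519.7 in SL non-LRC. Of the envelope list 2 members were higher than in SL, median 1.03, and of the spinous list 1, median 0.19. Myeloid and T cell genes gave 15 and 13 higher than in SL, medians 3.70 and 3.58. Centring each array on its median moved the split of GL against SL to 595 higher and 892 lower. With the array set as a term, 1144 genes passed between GL and SL. The SL LRC arrays are all in the high set and the SL non-LRC arrays in the low one. Array set and label therefore cannot be told apart within SL. Without GL 1 the GL against SL count was 575 and without GL 2 it was 890. 

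**Figure D5:**
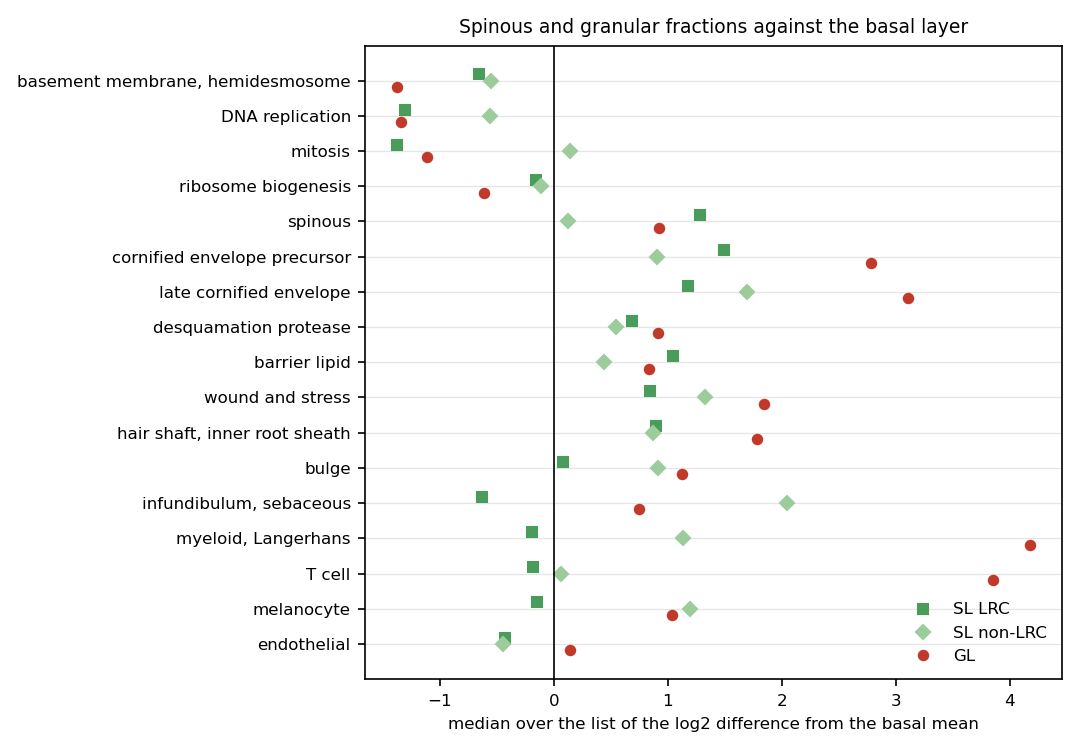
Median log2 difference from BL of the members of 17 gene lists in SL LRC, SL non-LRC and GL, in log2 units on the horizontal axis. The replication list lies at -1.34 and the envelope list at 2.78 in GL, and the SL points of those lists lie between these values and 0.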

How the data were processed

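Total RNA from sorted skin cells was amplified with the Ovation Pico WTA system and biotin-labelled, per the labels' protocols, and hybridised to 12 arrays. The deposited values are linear intensity values per probe set, which the authors had scaled: recomputed from the files, each array's 2% trimmed mean is 500. The summarisation software is not given in the sources used here.

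Of 45101 probe sets, 34945 map to 1 gene by the platform annotation. For each of 18193 genes, the probe set with the highest mean over the arrays was used, and log2 was taken with nothing added, since the design had assumed log2 values. Symbols were looked up in a RefSeq table of GRCm38.p6, which also gave the promoter windows. Background was the 95th percentile of 27 bacterial control probe sets on each array. A bound sets the measured mean of the brighter side against that floor or the dim values, whichever is higher.

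A single limma 3.58.1 model (R 4.3.3) of 5 group means, with a mean-variance trend, gave moderated standard errors and p-values adjusted by Benjamini-Hochberg over 18193 genes. The code was run on simulated data with independent noise on each array. Since basal arrays deviated together by number, that run cannot give the error rate for these data. Gene lists are described by counts and medians, with no set test. The members and lists were chosen with earlier results of these data known. Named genes are the 12 largest measured differences in each direction, the 8 largest bounds in each direction, in each list the 6 members with the lowest p, and 29 set genes, and genes outside this rule were chosen after their values were seen. They are Orc1, Rptn, Cdk1, Lamb1, Fras1, Rbl1, Ccng1, Ccng2, Ppl, Spink5, Dlx3, Zfp750, Klf4, Hes1, Jag1, Notch1, S100a8, Fos, Cd207, Itgax, Lum, Mfap5 and Des. Krtdap, also outside the rule, is named as a spinous layer marker set in the design.

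Replicate numbers are given in the titles, but they did not pair GL with BL. The correlation of same-numbered arrays' deviations from their group means was 0.016 and -0.044 for replicate 1 and -0.093 and -0.091 for replicate 2. Between BL LRC and BL non-LRC it was 0.317, 0.199 and 0.178 for replicates 1, 2 and 3, and -0.203 to 0.009 for unlike numbers. So same-numbered basal arrays deviated together. The BL replicate 1 arrays also share the low hybridisation control and the lack of Y-linked signal, and these cannot be told apart from the number. The model has no block, and a fit with the replicate number as a block was an alternative. That block groups GL 1 with the BL replicate 1 arrays, although they differ in array set and in Y-linked signal. Figures used Python 3.11.15 and matplotlib 3.10.9.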

Additional observations from a re-analysis of the deposited data

How the results depend on the processing

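Across 12 other settings of scaling, floor, probe set choice, filtering, moderation, weighting, blocking and array set, the number of genes called between GL and BL ran from 2220 without the intensity trend to 3192 with genes above background on 2 arrays. Between 2099 and 3073 of those were among the 3106. With 1 array left out the count ranged from 1652 to 3159 for GL against BL, 1549 to 2231 against BL LRC, 1390 to 2396 against BL non-LRC and 575 to 1227 against SL, with the lowest value in each case without GL 1. Without the trend 1622 genes differed from BL non-LRC and 713 from SL. The high-hybridisation-control arrays alone gave 2727 for GL against BL and could not be used against SL. Same-numbered arrays deviated together between the 2 basal fractions, but not between GL and BL. The replicate block gave 3148, of which 2807 were shared. It put Trp63, Dsg1a and Notch1 past the threshold and took Tgm2 below it. The cause was not tested for any of these.

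Of 223 genes named, with Krtdap not counted, 203 were called, and 163 of them passed under every alternative run. Averaging probe sets ended the calls of Mcm6, Cldn1, Rps6, Rptn, Abhd5 and Atg7. Such an average also takes in probe sets not above background, as for Casp14, Cldn1 and Abhd5. For Abhd5 and Atg7 it takes in others, above background, that gave smaller or opposite differences. A floor of 32 ended those of A930033H14Rik, Hrnr, Dsc2, Fos and Hes1. Dropping the trend ended those of Dcn, Gabarapl1, Jag1, Ldha, Pard6b, Slc2a1 and Sprr1b among others. Signs turned for Casp14 with averaged probe sets (-0.34) and Tgm2 without probe sets marked as cross-hybridising (0.15). Among genes not called they turned for Krt10 by quantile scaling (0.021) and for Cdh5 and Krt2 with a floor of 32 (0.45 and 0.31). Krt2 also turned with the array set as a term and on its high set alone (0.39 in each), and Des with averaged probe sets and with the replicate block (0.18 and 0.27). With 1 array left out the difference ranged from -0.000225 to 1.15 for Abca12, -4.43 to 1.17 for Cdh5, -0.33 to 0.24 for Des, -1.74 to 1.40 for Krt2, -0.81 to 1.20 for Lum and -0.026 to 0.16 for Ppl. Of 1520 counts of list members under alternatives, 1394 stayed within 1.5 times the reported count, and those moved by leaving out a BL array were counts of 3 or fewer.

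GL rests on 2 arrays, which limits every comparison. For 326 called genes the mean of GL, BL LRC or BL non-LRC was not above background, so that no size is given, and for 91 and 64 the size is a bound because BL or GL, respectively, was never above it. Another 11 called genes were not above background on any GL or BL array, so these calls rest on background values.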

Other observations

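Sex-linked signal set 2 of the 6 BL arrays apart from the other 10 arrays of the series. Xist read 13525 on BL LRC 1 and 9883 on BL non-LRC 1, and 3.86 to 997 on the other 10 arrays, GL included (26.6 and 229). The Y-linked gene Kdm5d read 1.14 and 2.65 on those BL arrays and 668 to 1454 on the others. Of 9 Y-linked genes tested, 0 were called between GL and BL in limma, and of 618 X-linked genes 69 were, or 11.2% against 17.1% of all genes. BL itself was split in Y-linked signal, which widens its spread. The lack of Y-linked calls therefore cannot show that GL and BL were alike.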
